A study of Rattus norvegicus with 12 samples.

Results

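The genes described here are targets of the transcription factor NRF2 and antioxidant enzymes, 35 in all, measured in cultured rat cerebellar granule neurons. They were taken by symbol: a probe set of the array counts for a gene when its only gene symbol is on the list. Of the 35, 32 genes had such a probe set (40 probe sets together), and 30 passed the filter on dim signals and were tested, out of 10261 genes tested on the array. Gstm2 and Osgin1 were under the filter. Prdx1, Fth1 and Ftl1 lie only on probe sets that also carry other symbols and were not tested as genes.

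Total RNA of these cultures was hybridised to 12 arrays in 4 groups of 3, lettered A, B and C: GW5074 at 6 h, low potassium at 6 h, GW5074 at 3 h and low potassium at 3 h. GW5074 is a small-molecule kinase inhibitor. Granule neurons survive in culture when potassium is raised and start to die when it is lowered. The labels name neither an untreated group nor one kept in raised potassium, and they leave unsaid if cultures given GW5074 were in low potassium too. Whether the letters are separate cultures is also unsaid, so the p-values measure a spread between arrays that may be technical. Genotype and animal age are not given. The title of array A of GW5074 at 6 h ends in another suffix than the other 11 titles and stayed in its group here. A difference between 6 h and 3 h cannot be told apart from a difference in time in culture, and in RNA from a whole culture fewer cells of a type cannot be told apart from less RNA per cell.

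NRF2, encoded by Nfe2l2, is held in the cytoplasm and marked for breakdown by KEAP1. Oxidants and electrophiles modify KEAP1, and NRF2 then builds up in the nucleus, pairs with small MAF proteins and binds antioxidant response elements before its target genes. The targets make glutathione, reduce thioredoxin, break down haem and supply NADPH. In the brain this response is known to be strong in astrocytes and weak in mature neurons, which rely on enzymes made at all times, such as the superoxide dismutases and peroxiredoxins.

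Each value below is an intensity on the linear scale as deposited, given in the order of letters A, B and C. Log2 differences and their tests are on quantile-normalised values with 16 added, for the brightest probe set of a gene, with limma and Benjamini-Hochberg adjustment over all 18625 probe sets kept and a threshold of 0.05. An error given after a log2 difference is a standard error (SE, n = 3 arrays in each group). Levels of different probe sets are not comparable.

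Time set the arrays apart. On the first principal component, which held 54.7% of the variance, with the 3 h mean at 0 and the 6 h mean at 1, the 6 h arrays of letter B lay at 0.628 (GW5074) and 0.691 (low potassium), the other 6 h arrays between 1.1 and 1.23 and the 3 h arrays between -0.0844 and 0.115. Of 14 granule neuron markers, 13 had a probe set and all 13 passed the filter. All 6 Purkinje and GABAergic markers and 9 of 10 astrocyte markers with a probe set passed it too. The summed intensity of the 13 granule neuron markers was 14169 to 17917 with GW5074 and 14444 to 16261 in low potassium at 6 h, against 7995 to 9185 with GW5074 and 8033 to 10299 in low potassium at 3 h. Against 3 h, 13 of the 13 were higher at 6 h with GW5074 and 8 in low potassium, and none was lower in either. Of 9 astrocyte markers tested, Gfap and Aldoc were higher and Id3 lower at 6 h in both treatments. The 10 with a probe set, the dim Slc1a2 included, summed to 4132 to 4666 with GW5074 and 3723 to 6116 in low potassium at 6 h, against 2420 to 2808 with GW5074 and 2482 to 3310 in low potassium at 3 h. The median log2 difference of the 9 tested was -0.01 with GW5074 and 0.07 in low potassium, so the higher sum is not a rise of the whole list. Mean Gfap was 1660 with GW5074 and 1950 in low potassium at 6 h, against 421 and 473 at 3 h. Mean Aldoc was 1090 and 1060 at 6 h, against 457 and 501 at 3 h. Of 10 microglial and macrophage markers, Aif1, Cx3cr1, Itgam and Ptprc were under the filter and 6 were tested, with none past the threshold between the times in either treatment. The 10 together summed to 435 to 612 with GW5074 and 476 to 820 in low potassium at 6 h, against 443 to 876 with GW5074 and 490 to 905 in low potassium at 3 h. Of 6 oligodendrocyte markers tested, Cnp was lower at 6 h in both treatments. The 8 with a probe set, the dim Cspg4 and Olig2 included, summed to 1805 to 2674 with GW5074 and 2255 to 2472 in low potassium at 6 h, against 2606 to 3288 with GW5074 and 3011 to 3814 in low potassium at 3 h. Of 6 markers of Purkinje and GABAergic neurons tested, Pvalb was lower at 6 h in both treatments, and the list summed to 894 to 1013 with GW5074 and 970 to 1162 in low potassium at 6 h, against 1045 to 1205 with GW5074 and 1045 to 1282 in low potassium at 3 h. Of 9 endothelial and fibroblast markers 3 were tested and none passed, and the 9 summed to 157 to 321 with GW5074 and 207 to 301 in low potassium at 6 h, against 151 to 218 with GW5074 and 234 to 304 in low potassium at 3 h. The part of these cell markers in the member differences between the times was not tested.

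The comparison of GW5074 with low potassium asks whether the inhibitor shifts the antioxidant genes. No member passed the test at 6 h, at 3 h or averaged over both times, and none differed in its GW5074 difference between the times. That holds for limma without pairs, in which 0% of all genes passed in each of the 4 comparisons, and for limma with the arrays of a letter paired within a time, in which 1.94% of all genes passed at 6 h, 0.00975% at 3 h, 0.224% averaged and 0.166% for the change between the times. At an unadjusted p under 0.05, 2 members passed at 6 h, 0 at 3 h, 1 averaged and 0 for the change between the times without pairs, where 4.81%, 1.61%, 2.51% and 3.46% of the 18625 probe sets did. With pairs, 3, 0, 3 and 3 of the 30 members passed it, a share of 10%, 0%, 10% and 10%, against 16.3%, 6.58%, 10.1% and 13.5% of the probe sets. The member median was -0.06 at 6 h, where that of all genes was 0.02, and 0.00 at 3 h, where that of all genes was -0.01. With pairs, the 95% intervals of the 30 members reached down to -0.71 and up to 0.46 at 6 h, and from -0.52 to 0.55 at 3 h. Without pairs they were wider, from -1.22 to 0.60 at 6 h and from -0.75 to 1.02 at 3 h.

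**Figure D1:**
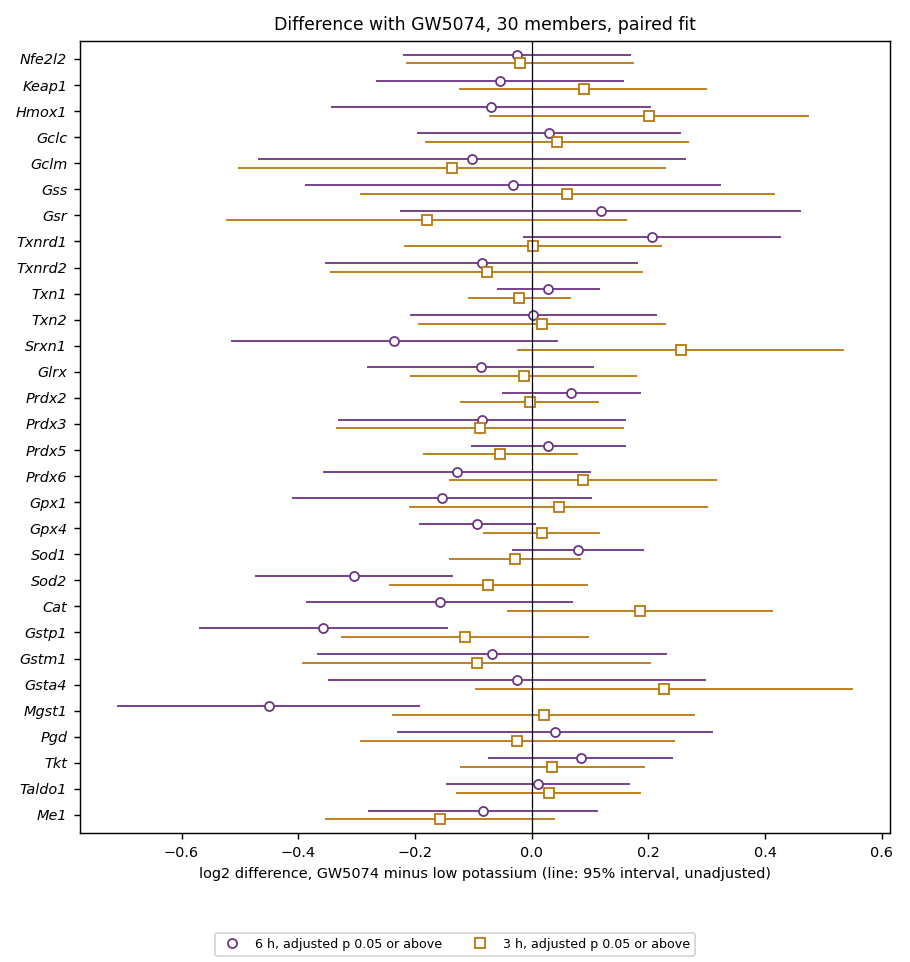
GW5074 minus low potassium for the 30 tested members in the paired limma fit, as log2 differences (points) with unadjusted 95% intervals (lines), at 6 h (circles) and at 3 h (squares). All symbols are open because no member passed the adjusted threshold; Mgst1 (-0.45), Gstp1 (-0.36) and Sod2 (-0.30) at 6 h lie farthest to the left.

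Between 6 h and 3 h, 11 members differed in at least one treatment. With GW5074, 9 of 30 passed (30%, against 27.6% of all genes), 2 of them higher (13.5% of all genes) and 7 lower (14.1% of all genes). In low potassium, 8 of 30 passed (26.7%, against 25.6% of all genes), 2 of them higher (11.4% of all genes) and 6 lower (14.1% of all genes). Both shares are near those of all genes, so the number of calls says nothing particular about the members. The member median was -0.26 with GW5074 and -0.16 in low potassium, where the medians of all genes were -0.02 and -0.04. Hmox1, Gpx4, Prdx6 and Tkt fell and Cat and Glrx rose in both treatments, Srxn1, Sod2 and Gstp1 passed with GW5074 alone and Txnrd1 and Pgd in low potassium alone. The difference between the treatments in these time differences was not past the threshold for any member (lowest adjusted p 1 in limma without pairs and 0.249 with pairs), so no member is shown to differ between the treatments.

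**Figure D2:**
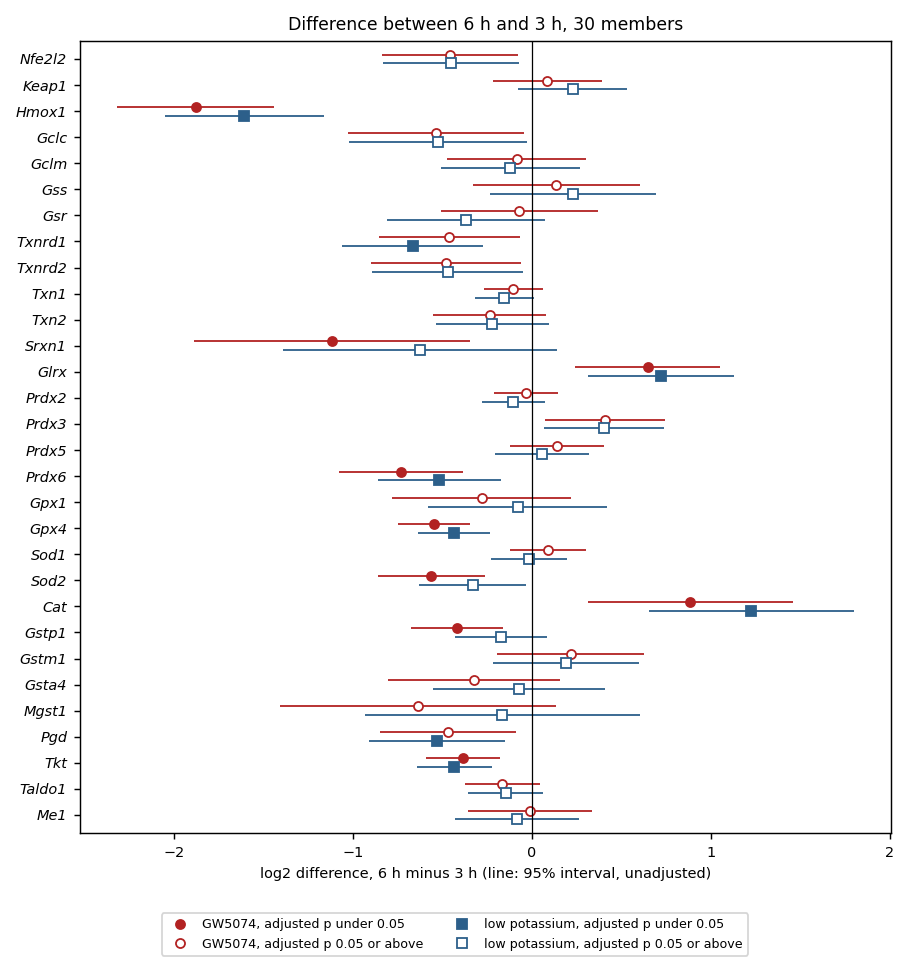
The 6 h minus 3 h difference of the 30 tested members on the log2 scale, with unadjusted 95% intervals, for GW5074 (circles) and low potassium (squares). Filled symbols have an adjusted p under 0.05: 9 members with GW5074 and 8 in low potassium, with Hmox1 farthest to the left and Cat farthest to the right.

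Among the regulators, neither Nfe2l2 nor Keap1 passed the test in any comparison. Nfe2l2 had 366, 485 and 307 with GW5074 and 398, 440 and 314 in low potassium at 6 h, and 467, 531 and 528 with GW5074 and 449, 546 and 568 in low potassium at 3 h. Array B was the highest of its group at 6 h in both treatments, and with GW5074 it lay inside the 3 h range, while in low potassium the times did not overlap. The time difference was -0.46 ± 0.18 with GW5074 (limma adjusted p 0.0751) and -0.45 ± 0.18 in low potassium (limma adjusted p 0.0809). Without the 6 h array B of the treatment in question it passed, at -0.64 with GW5074 (limma adjusted p 0.012) and -0.56 in low potassium (limma adjusted p 0.0462), and without GW5074 6 h array B the low-potassium value of -0.45 passed too (limma adjusted p 0.0422). With the pairs of a time as a random replicate block, the GW5074 value of -0.46 passed (limma adjusted p 0.0477). Both treatments passed with array weights (limma adjusted p 0.0023 with GW5074 and 0.0277 in low potassium). They also passed with the letter as a replicate block over both times (limma adjusted p 0.0363 and 0.0398). More of all genes passed in these 2 settings too. Keap1, the repressor, had 355, 323 and 356 with GW5074 and 391, 291 and 382 in low potassium at 6 h, and 269, 338 and 321 with GW5074 and 269, 307 and 287 in low potassium at 3 h. The times overlapped in both treatments, with time differences of 0.09 with GW5074 and 0.23 in low potassium. The GW5074 difference of Nfe2l2 was -0.03 at 6 h and -0.02 at 3 h, and that of Keap1 was -0.05 at 6 h and 0.09 at 3 h.

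Hmox1, which encodes the inducible haem oxygenase and is a textbook NRF2 target, had the largest time difference of the 30 members in both treatments. It had 153, 178 and 98.6 with GW5074 and 188, 136 and 126 in low potassium at 6 h, against 580, 584 and 473 with GW5074 and 449, 597 and 392 in low potassium at 3 h. All 6 arrays at 6 h lay below all 6 arrays at 3 h, and the treatments overlapped at each time. Hmox1 fell by 1.88 ± 0.21 on the log2 scale with GW5074 (3.67-fold, limma adjusted p 0.000119) and by 1.61 ± 0.21 in low potassium (3.04-fold, limma adjusted p 0.00041). The fall passed the threshold under each of the 25 alternative settings of the unpaired fit in both treatments. The GW5074 difference was -0.07 at 6 h, with pairs at -0.28, 0.35 and -0.28, and 0.20 at 3 h, with pairs at 0.33, -0.02 and 0.29, so the pairs did not share a sign at either time. Osgin1, a stress-induced growth inhibitor gene under the filter, had 10.2 to 18 over the 6 arrays at 6 h and 5.43 to 30.2 over the 6 arrays at 3 h.

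**Figure D3:**
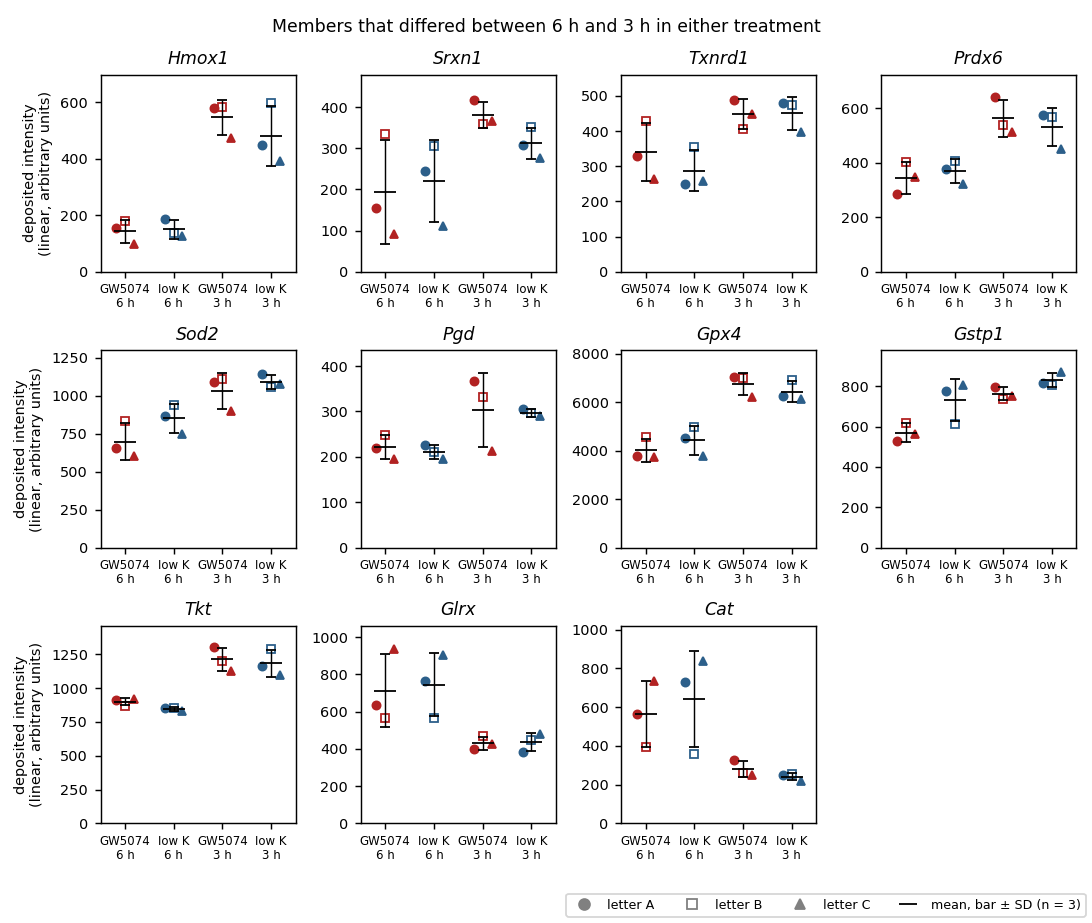
Deposited intensities (linear, arbitrary units, axes from 0) of the 11 members that passed the test between 6 h and 3 h in either treatment, by group and letter, with group mean and SD (n = 3). Hmox1, Gpx4, Prdx6 and Tkt lie lower in all 6 arrays at 6 h than in all 6 at 3 h, Cat and Glrx higher, and the open squares of letter B at 6 h often lie nearest to the 3 h values.

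The 4 genes of glutathione synthesis and recycling gave no call. Gclc, the catalytic subunit of the enzyme that sets the pace of glutathione synthesis, had 211, 274 and 126 with GW5074 and 189, 253 and 140 in low potassium at 6 h, against 279, 279 and 265 with GW5074 and 277, 259 and 262 in low potassium at 3 h. The 6 arrays at 3 h were close together, whereas at 6 h array B was near them and array C was the lowest in both treatments. The time difference was -0.54 ± 0.23 with GW5074 (limma adjusted p 0.104) and -0.52 ± 0.23 in low potassium (limma adjusted p 0.116), and it passed without the 6 h array B of the treatment, at -0.77 with GW5074 (limma adjusted p 0.0191) and -0.72 in low potassium (limma adjusted p 0.0348). With no array left out, Gclc passed in both treatments with array weights (limma adjusted p 0.0103 with GW5074 and 0.034 in low potassium). It also passed with the letter as a replicate block (limma adjusted p 0.0392 and 0.0453). More of all genes passed in these settings too. Gclm, the modifier subunit of the same enzyme, had 61.6, 69.9 and 85.9 with GW5074 and 84.4, 78.4 and 77.6 in low potassium at 6 h, and 85, 91 and 61 with GW5074 and 83.7, 78.9 and 97.3 in low potassium at 3 h. Its groups overlapped in each comparison, with time differences of -0.09 with GW5074 and -0.12 in low potassium. Gss, which joins glycine in the last step of glutathione synthesis, gave 0.14 with GW5074 and 0.23 in low potassium, and Gsr, which reduces oxidised glutathione, gave -0.07 and -0.37. The GW5074 differences of these 4 genes lay between -0.10 and 0.12 at 6 h and between -0.18 and 0.06 at 3 h.

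In the thioredoxin and glutaredoxin systems, Glrx rose in both treatments, and Srxn1 and Txnrd1 passed as lower in 1 treatment each. Srxn1, sulfiredoxin, which repairs over-oxidised peroxiredoxins, had 156, 335 and 92.1 with GW5074 and 244, 305 and 111 in low potassium at 6 h, against 418, 358 and 366 with GW5074 and 307, 352 and 277 in low potassium at 3 h. The times did not overlap with GW5074 and overlapped in low potassium, where array B at 6 h lay inside the 3 h range. It fell by 1.12 ± 0.36 with GW5074 (2.17-fold, limma adjusted p 0.0355), and the low-potassium difference was -0.63 ± 0.36 (limma adjusted p 0.226). Its second probe set passed in both treatments, at -1.05 ± 0.29 with GW5074 (limma adjusted p 0.0172) and -1.12 ± 0.29 in low potassium (limma adjusted p 0.0136), so the 2 probe sets disagree on the low-potassium call. The GW5074 call of the brighter probe set ended without 3 h array A, B or C or 6 h array A or C of GW5074 (limma adjusted p 0.0629 to 0.158; -0.74 without 6 h array C), with no filter and with no mean-variance trend, and without both 6 h arrays of letter B the low-potassium difference passed at -0.90 (limma adjusted p 0.0189).

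Txnrd1, the cytosolic thioredoxin reductase, had 329, 428 and 264 with GW5074 and 251, 354 and 258 in low potassium at 6 h, and 490, 407 and 450 with GW5074 and 481, 473 and 397 in low potassium at 3 h. The times did not overlap in low potassium, and with GW5074 array B at 6 h lay inside the 3 h range. Txnrd1 fell by 0.66 ± 0.18 in low potassium (limma adjusted p 0.0193), and its difference was -0.46 ± 0.18 with GW5074 (limma adjusted p 0.0809). The second probe set passed in both, at -0.73 ± 0.23 with GW5074 (limma adjusted p 0.0328) and -0.69 ± 0.23 in low potassium (limma adjusted p 0.0453). The low-potassium call of the brighter probe set ended without 3 h array A or B or 6 h array A or C of low potassium (limma adjusted p 0.0655 to 0.0789), and with GW5074 the difference passed without 6 h array B (-0.64, limma adjusted p 0.0151). Its GW5074 difference at 6 h was 0.21 (paired limma adjusted p 0.346), higher in 3 of 3 pairs, where the second probe set gave 0.01.

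Glrx, glutaredoxin, which removes glutathione from protein thiols, had 636, 565 and 935 with GW5074 and 766, 567 and 904 in low potassium at 6 h, against 397, 469 and 424 with GW5074 and 382, 447 and 481 in low potassium at 3 h. All 6 arrays at 6 h lay above all 6 at 3 h, with array B the lowest at 6 h in both treatments. Glrx rose by 0.65 ± 0.19 with GW5074 (1.57-fold, limma adjusted p 0.0229) and by 0.72 ± 0.19 in low potassium (1.65-fold, limma adjusted p 0.0153). The second probe set gave 0.41 with GW5074, under the threshold (limma adjusted p 0.187), and 0.72 in low potassium (limma adjusted p 0.0308). The GW5074 call ended without 3 h array A or C or 6 h array C of GW5074 (limma adjusted p 0.0509 to 0.107) and for the mean of both probe sets (limma adjusted p 0.0648), and the low-potassium call without 3 h array A or 6 h array A or C of low potassium (limma adjusted p 0.0558 to 0.0748). The other thioredoxin genes, Txn1 in the cytosol and Txn2 and Txnrd2 in mitochondria, were not called, with time differences of -0.10, -0.24 and -0.48 with GW5074 and -0.15, -0.22 and -0.47 in low potassium. Txn1 with GW5074 passed on the deposited scale without quantile normalisation (-0.34, limma adjusted p 0.00721) and after centring on the median (-0.30, limma adjusted p 0.015), and Txnrd2 with GW5074 passed without 3 h array C of GW5074 (-0.65, limma adjusted p 0.0337).

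Of the 6 peroxiredoxins and glutathione peroxidases tested, Gpx4 and Prdx6 fell in both treatments. Gpx4, which reduces lipid hydroperoxides in membranes and guards against ferroptosis, had 3770, 4570 and 3724 with GW5074 and 4500, 4988 and 3781 in low potassium at 6 h, against 7040, 6983 and 6204 with GW5074 and 6253, 6908 and 6116 in low potassium at 3 h. All 6 arrays at 6 h lay below all 6 at 3 h. Gpx4 fell by 0.55 ± 0.09 with GW5074 (1.46-fold, limma adjusted p 0.00141) and by 0.44 ± 0.09 in low potassium (1.35-fold, limma adjusted p 0.00583), and like Hmox1 it passed under each of the 25 alternative settings in both treatments. Its GW5074 difference at 6 h was -0.09 (paired limma adjusted p 0.347), lower in 3 of 3 pairs.

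Prdx6, a peroxiredoxin that also reduces phospholipid hydroperoxides, had 286, 403 and 347 with GW5074 and 378, 408 and 322 in low potassium at 6 h, against 640, 539 and 511 with GW5074 and 574, 569 and 449 in low potassium at 3 h. The times did not overlap in either treatment. Prdx6 fell by 0.73 ± 0.16 with GW5074 (1.66-fold, limma adjusted p 0.00558) and by 0.52 ± 0.16 in low potassium (1.43-fold, limma adjusted p 0.0338), and the low-potassium call ended without 3 h array A or B or 6 h array A or C of low potassium (limma adjusted p 0.0711 to 0.139). The mitochondrial Prdx3 gave 0.41 with GW5074 (limma adjusted p 0.0717) and 0.40 in low potassium (limma adjusted p 0.077). It passed in both treatments on the deposited scale without quantile normalisation (0.48 with GW5074, limma adjusted p 0.0331, and 0.45 in low potassium, limma adjusted p 0.0474), with GW5074 also after centring on the median (0.53, limma adjusted p 0.0306), and in both without low-potassium 6 h array B (0.41 with GW5074, limma adjusted p 0.0459, and 0.55 in low potassium, limma adjusted p 0.0202). Prdx2, abundant in neurons, gave -0.03 with GW5074 and -0.10 in low potassium, Prdx5 gave 0.14 and 0.06, and Gpx1, the cytosolic glutathione peroxidase, gave -0.28 and -0.08. The GW5074 differences of these 6 genes lay between -0.15 and 0.07 at 6 h and between -0.09 and 0.09 at 3 h.

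Catalase rose, and the mitochondrial superoxide dismutase fell with GW5074. Cat, which breaks down hydrogen peroxide in peroxisomes, had 565, 393 and 736 with GW5074 and 730, 360 and 836 in low potassium at 6 h, against 329, 260 and 252 with GW5074 and 249, 256 and 221 in low potassium at 3 h. All 6 arrays at 6 h lay above all 6 at 3 h, and array B was the lowest at 6 h in both treatments. Cat rose by 0.88 ± 0.27 with GW5074 (1.85-fold, limma adjusted p 0.0267) and by 1.23 ± 0.27 in low potassium (2.34-fold, limma adjusted p 0.00591). The GW5074 call ended without 3 h array B or C or 6 h array A or C of GW5074 (limma adjusted p 0.0715 to 0.116), and the low-potassium call held in each setting. The GW5074 difference was -0.16 at 6 h and 0.19 at 3 h, higher in 3 of 3 pairs at 3 h (paired limma adjusted p 0.85).

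Sod2, the manganese superoxide dismutase of mitochondria, had 653, 834 and 602 with GW5074 and 865, 937 and 750 in low potassium at 6 h, against 1094, 1110 and 897 with GW5074 and 1142, 1057 and 1077 in low potassium at 3 h. The times did not overlap in either treatment, and in each letter at 6 h the GW5074 array was the lower one. Sod2 fell by 0.56 ± 0.14 with GW5074 between the times (1.48-fold, limma adjusted p 0.0109), and the low-potassium difference was -0.33 ± 0.14 (limma adjusted p 0.102). The GW5074 call ended without 3 h array B or 6 h array C of GW5074 (limma adjusted p 0.0503 and 0.05), and the low-potassium difference passed without both 6 h arrays of letter B (-0.41, limma adjusted p 0.0208). Sod1, the copper-zinc enzyme of the cytosol, gave 0.09 with GW5074 and -0.02 in low potassium, and the GW5074 value turned to -0.09 on the deposited scale without quantile normalisation and to -0.04 after centring on the median.

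Among the glutathione transferases, Gstp1 fell with GW5074. Gstp1, the main transferase of the pi class, had 529, 619 and 563 with GW5074 and 775, 615 and 808 in low potassium at 6 h, and 798, 736 and 752 with GW5074 and 818, 808 and 872 in low potassium at 3 h. With GW5074 the times did not overlap, and at 6 h the treatments overlapped through low-potassium array B alone. The fall was 0.42 ± 0.12 on the log2 scale, a 1.33-fold lower value at 6 h (limma adjusted p 0.0218), and the low-potassium difference was -0.17 ± 0.12 (limma adjusted p 0.319). The GW5074 call ended without 3 h array A, B or C or 6 h array A or C of GW5074 (limma adjusted p 0.0523 to 0.0922) and after centring on the median (limma adjusted p 0.0659).

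Mgst1, a membrane-bound transferase that is abundant in liver, had 183, 379 and 128 with GW5074 and 336, 457 and 152 in low potassium at 6 h, and 388, 288 and 294 with GW5074 and 352, 298 and 293 in low potassium at 3 h. The arrays at 6 h spanned a wider range than those at 3 h, with array B highest and array C lowest in both treatments. Its time difference was -0.64 ± 0.36 with GW5074 (limma adjusted p 0.212) and -0.17 ± 0.36 in low potassium, and with GW5074 it passed without 6 h array B (-1.05, limma adjusted p 0.0254). Gsta4, which conjugates the lipid peroxidation product hydroxynonenal, had 78.3, 64.2 and 44.4 with GW5074 and 96.5, 67.2 and 37.0 in low potassium at 6 h, and 80.9, 79.8 and 81.3 with GW5074 and 63.3, 69.1 and 68.6 in low potassium at 3 h. At 3 h the GW5074 arrays lay above the low-potassium arrays in 3 of 3 pairs, with a difference of 0.23 (paired limma adjusted p 0.889). Gstm1 gave time differences of 0.22 with GW5074 and 0.19 in low potassium, and Gstm2, under the filter, had 1.75 to 22.5 over the arrays at 6 h and 2.62 to 21.7 over those at 3 h.

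The NADPH suppliers gave 1 call shared by the treatments. Tkt, transketolase of the pentose phosphate pathway, had 908, 871 and 921 with GW5074 and 852, 854 and 827 in low potassium at 6 h, against 1301, 1203 and 1129 with GW5074 and 1160, 1292 and 1097 in low potassium at 3 h. All 6 arrays at 6 h lay below all 6 at 3 h. Tkt fell by 0.39 ± 0.10 with GW5074 (1.31-fold, limma adjusted p 0.0119) and by 0.43 ± 0.10 in low potassium (1.35-fold, limma adjusted p 0.00701), and the GW5074 call ended without GW5074 3 h array A (limma adjusted p 0.0525). At 6 h the GW5074 arrays of Tkt lay above the low-potassium ones, with a difference of 0.08 (paired limma adjusted p 0.635).

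Pgd, which makes NADPH in the same pathway, had 219, 248 and 196 with GW5074 and 226, 211 and 196 in low potassium at 6 h, and 368, 332 and 212 with GW5074 and 306, 297 and 289 in low potassium at 3 h. The times did not overlap in low potassium, and with GW5074 array C at 3 h lay inside the 6 h range. Pgd fell by 0.53 ± 0.18 in low potassium (1.44-fold, limma adjusted p 0.0447), and its difference was -0.47 ± 0.18 with GW5074 (limma adjusted p 0.0686). The low-potassium call ended in 13 of 25 alternative settings, among them each low-potassium array left out in turn, GW5074 3 h array B or 6 h array A left out, the deposited scale (limma adjusted p 0.0675) and no filter (limma adjusted p 0.0651), with a limma adjusted p of at most 0.138. With GW5074 it passed without 3 h array C (-0.70, limma adjusted p 0.00617) or 6 h array B (-0.55, limma adjusted p 0.0497) of GW5074.

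Taldo1, transaldolase, gave time differences of -0.16 with GW5074 and -0.15 in low potassium. Me1, the cytosolic malic enzyme, had 338, 417 and 484 with GW5074 and 366, 400 and 534 in low potassium at 6 h, and 449, 372 and 377 with GW5074 and 463, 414 and 462 in low potassium at 3 h. Its groups overlapped in each comparison, with time differences of -0.01 with GW5074 and -0.08 in low potassium, and at 3 h it was lower with GW5074 in 3 of 3 pairs (log2 difference -0.16, paired limma adjusted p 0.86).

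At 6 h the array of letter B was often the one closest to the 3 h mean. With GW5074 it was the closest in 23 of 30 members (and in 51.9% of all genes tested), and in 10 of the 11 that passed in either treatment. In low potassium it was the closest in 19 of 30 (and in 51.4% of all genes tested), and in 7 of those 11. The same count over all genes that passed was not taken, so the counts out of 11 are not read as a trait of the members. Without both 6 h arrays of letter B, 15 members passed with GW5074 and 12 in low potassium, against 9 and 8 with all arrays. That is 50% and 40% of the members, where 35.1% of all genes passed with GW5074 and 33.6% in low potassium in the same setting. Nfe2l2 and Gclc were then among them in both treatments, at -0.64 and -0.77 with GW5074 (limma adjusted p 0.00702 and 0.00724) and at -0.56 and -0.72 in low potassium (limma adjusted p 0.0159 and 0.0108). What sets letter B apart at 6 h was not tested.

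The members nearest to a GW5074 difference were lower at 6 h. Sod2 was lower with GW5074 in 3 of 3 pairs, by -0.44, -0.16 and -0.30 on the log2 scale in letters A, B and C, with a mean difference of -0.30 ± 0.08 (paired limma adjusted p 0.0648, unpaired 0.983). Mgst1 was also lower in 3 of 3 pairs, by -0.86, -0.27 and -0.22, with a mean of -0.45 ± 0.12 (paired limma adjusted p 0.072, unpaired 0.983). Gstp1 was lower in letters A and C, by -0.57 and -0.51, and level in letter B, at 0.01, with a mean of -0.36 ± 0.10 (paired limma adjusted p 0.0828, unpaired 0.939). These 3 were the members with an unadjusted p under 0.05 in the paired fit, and without the 6 h pair B Gstp1 passed, at -0.54 (paired limma adjusted p 0.01), as it did averaged over both times, at -0.33 (paired limma adjusted p 0.0321).

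At 3 h no member came as near. Srxn1 had the smallest p, with a difference of 0.26 ± 0.13 (paired limma adjusted p 0.813) that was positive in 3 of 3 pairs, but its second probe set gave -0.23 and was negative in 3 of 3 pairs. At 6 h its brighter probe set gave -0.24, with pairs at -0.62, 0.12 and -0.20. Pair A at 6 h holds the GW5074 array with the other title suffix. It gave the lowest of the 3 pair differences in 21 of 30 members, Sod2, Mgst1, Gstp1, Srxn1 and Cat among them. Low-potassium array A enters these differences equally. The same count over all genes was not taken, so it is not read as a trait of the members. The log2 signal of the 3-prime actin control probe set minus that of its 5-prime one, a sign of RNA quality, was 1.06 to 1.16 with GW5074 and 0.97 to 1.02 in low potassium at 6 h, which did not overlap. The same measure of the Gapdh control was 0.14 to 0.16 with GW5074 and 0.10 to 0.19 in low potassium, which overlapped. The mean log2 signal of the poly-A spike controls was 6.52 to 6.56 with GW5074 and 6.69 to 7.05 in low potassium, which did not overlap. At 3 h the actin measure was 0.87 to 1.36 with GW5074, highest in array C, and 0.84 to 1.06 in low potassium. The Gapdh measure was 0.09 to 0.24 and 0.08 to 0.19 at 3 h. The spike controls at 3 h gave 6.44 (GW5074) and 6.58 (low potassium) in letter A, and 7.6 to 7.78 in letters B and C. In the paired fit at 6 h, 1 of 13 granule neuron markers was higher and 1 of 9 astrocyte markers lower with GW5074, and none of the tested oligodendrocyte, microglial, endothelial, fibroblast, Purkinje or GABAergic markers passed. The part of RNA quality and of these markers in the member differences was not tested.

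**Figure D4:**
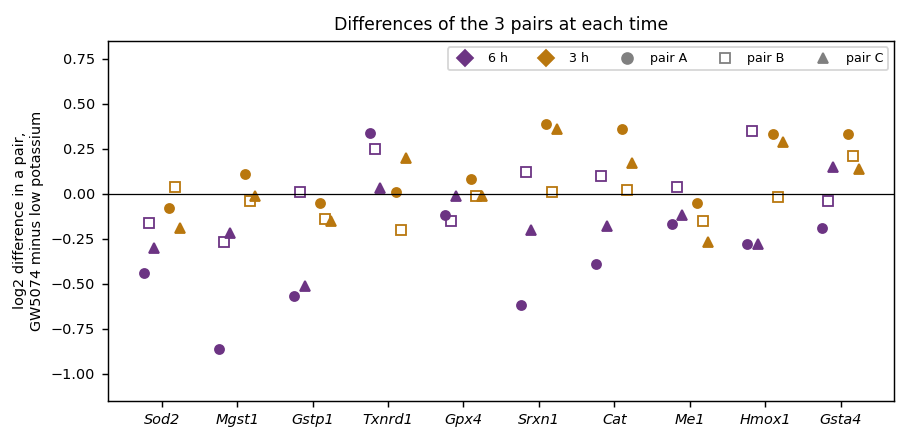
GW5074 minus low potassium within each letter, as log2 differences, for the 5 members with the smallest paired p at 6 h and the 5 at 3 h, with 6 h left of 3 h for each gene. Sod2 and Mgst1 lie below 0 in all 3 pairs at 6 h, Gstp1 in pairs A and C, and the 3 h points of these 3 genes lie between -0.19 and 0.11.

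Sequence upstream of the members was read from the RefSeq promoter table of assembly GRCr8, which holds 250 bases before and 50 bases after each gene start. It held 30 of the 35 members, in 33 windows, and no window was used for Hmox1, Gsr, Prdx6, Fth1 and Ftl1. The core of the antioxidant response element, searched as TGACNNNGC on both strands, was in 8 of 30 member genes (24.2% of their windows, against 12.1% of all 33365 windows). The AP-1 site, searched as TGANTCA on both strands, was in 6 of 30 (18.2% of their windows, against 7.34% of all windows). Of the 8 genes with the core, Txnrd1 passed between the times in low potassium alone and Gstp1 and Sod2 with GW5074 alone. Gclm, Me1, Nfe2l2 and Prdx5 did not pass, and Prdx1 was not tested. Of all 30 tested members, with or without the core, 11 passed in either treatment. Whether the core goes with a time difference was not tested. A match is a run of letters in this window and not a measured binding site. The stretches below show the core in the members that passed and in Gclm and Me1, which did not, each on the strand of its gene with the match in capitals.
Txnrd1 (chr7:22755944-22756012, minus strand): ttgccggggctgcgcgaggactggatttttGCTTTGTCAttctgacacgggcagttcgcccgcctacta
Gstp1 (chr1:210769728-210769796, minus strand): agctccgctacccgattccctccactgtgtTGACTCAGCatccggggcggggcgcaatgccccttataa
Sod2 (chr1:50050169-50050233, minus strand): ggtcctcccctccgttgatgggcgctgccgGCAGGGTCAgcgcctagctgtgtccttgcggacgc
Gclm (chr2:213031933-213032001, plus strand): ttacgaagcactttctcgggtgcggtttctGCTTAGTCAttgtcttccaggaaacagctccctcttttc
Me1 (chr8:96540373-96540441, minus strand): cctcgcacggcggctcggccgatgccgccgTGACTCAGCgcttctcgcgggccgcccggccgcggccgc
The match begins at position -78 from the gene start in Txnrd1, -61 in Gstp1, -35 in Sod2, -172 in Gclm and -167 in Me1. Gstp1 and Me1 share the core TGACTCAGC, which also holds an AP-1 match, while the core reads TGACAAAGC in Txnrd1, TGACCCTGC in Sod2 and TGACTAAGC in Gclm on the strand of the motif. Gstp1 and Me1, with the same 9 letters, had time differences of -0.42 and -0.01 with GW5074. In low potassium they had -0.17 and -0.08, neither past the threshold.
Srxn1 holds no core in its window but has 2 AP-1 matches, at positions -62 and -5, and the stretch around the first is shown with the match in capitals.
Srxn1 (chr3:161064720-161064786, plus strand): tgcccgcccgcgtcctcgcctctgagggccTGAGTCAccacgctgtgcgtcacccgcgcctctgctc

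Of 70 other genes of the pathway that were listed, 59 were tested. At 6 h against 3 h, 4 were higher and 12 lower with GW5074 (27.1%, against 27.6% of all genes), and 8 were higher and 10 lower in low potassium (30.5%, against 25.6% of all genes). Slc7a11, the cystine importer that feeds glutathione synthesis, had 52.0, 77.4 and 96.7 with GW5074 and 55.5, 97.6 and 114 in low potassium at 6 h, against 383, 291 and 279 with GW5074 and 390, 344 and 257 in low potassium at 3 h. It fell by 1.90 ± 0.25 with GW5074 (limma adjusted p 0.000269) and by 1.80 ± 0.25 in low potassium (limma adjusted p 0.000558), with no overlap between the times. Sesn1, a stress-induced sestrin, rose by 1.29 with GW5074 and 1.35 in low potassium (limma adjusted p 0.000845 and 0.0009). Glrx5, a mitochondrial glutaredoxin of iron-sulfur cluster assembly, fell by 0.61 with GW5074 and by 0.73 in low potassium (limma adjusted p 0.00155 and 0.000837), and Gsto1, an omega-class transferase, fell by 0.60 and by 0.49 (limma adjusted p 0.00055 and 0.00209). Idh1, which makes NADPH in the cytosol, rose by 0.91 with GW5074 (limma adjusted p 0.00214) and by 0.62 in low potassium (limma adjusted p 0.0185), and Blvra, biliverdin reductase, which acts after haem oxygenase, rose by 0.70 in low potassium (limma adjusted p 0.00627). Nqo1, a quinone reductase often read as an NRF2 target, did not pass, with time differences of -0.01 with GW5074 and 0.26 in low potassium.

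For GW5074 against low potassium, 1 of the 59 passed, in the paired fit alone. That is 1.69% at 6 h, against 1.94% of all genes, and 1.69% averaged over both times, against 0.224%. The calls of the paired fit depended on the mean-variance trend. Over the whole array it called 348 probe sets at 6 h and 44 averaged, and without the trend 1 and 4. Txnip, which binds and inhibits thioredoxin, had 530, 1312 and 772 with GW5074 and 792, 1630 and 1193 in low potassium at 6 h, and 1101, 940 and 886 with GW5074 and 1589, 1276 and 1196 in low potassium at 3 h. It was lower with GW5074 in each of the 6 pairs, and at 3 h the treatments did not overlap. Its difference was -0.51 ± 0.08 at 6 h (paired limma adjusted p 0.00495, unpaired 0.983), -0.42 ± 0.08 at 3 h (paired limma adjusted p 0.185, unpaired 1) and -0.47 ± 0.06 averaged over both times (paired limma adjusted p 0.00106, unpaired 1).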

How the data were processed

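The deposited values are linear intensities, 1 for each of 31099 probe sets on an array. From the values, the authors scaled every array to a trimmed mean of 150.05 to 150.06. Their summarisation, not given in the sources used here, was left as it is. Probe sets were named from the platform table (20826 with 1 symbol, 436 with several, 9780 with none), and 20758 matched a GRCr8 gene table used for names and promoters.

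Values were quantile-normalised without the control probe sets, and log2 was taken after adding 16. Probe sets with a mean at or above the 40th percentile were kept. limma 3.58.1 in R 4.3.3 (lmFit, eBayes with trend, two-sided) fitted 4 group means to all 12 arrays. The fit was also run on simulated data, and those results are not given here. Changes were put into GW5074 at 6 h alone, with no shift of the 6 h arrays of letter B. Figures used matplotlib 3.10.9 in Python 3.11.15. Precision is limited by the number of arrays.

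The paired fit adds a replicate block within time. The pairing comes from the letters: after removal of group means, GW5074 and low-potassium arrays of a letter correlated at 6 h by 0.293 (A), 0.65 (B) and 0.572 (C), and at 3 h by 0.425 (A), 0.21 (B) and 0.542 (C). Across times the same letter gave -0.0668 to 0.182, so time differences were not paired.

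The brightest probe set on average stands for a gene. Values on every array are given for members past 0.05 in any comparison, for the 5 smallest paired p for GW5074 at each time and for Nfe2l2, Keap1, Hmox1, Gclc, Gclm, Srxn1 and Txnrd1; of other pathway genes, up to 5 a comparison are named by smallest p. Nqo1 was named after its values were seen. The members, lists and tests were chosen with earlier results of these data known. Alternatives varied the pseudocount, scaling, filter, trend, weights, probe set, arrays and block; the paired fit under other settings was added after seeing the data.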

Additional observations from a re-analysis of the deposited data

How the results depend on the processing

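Over 26 settings of the unpaired fit and 14 of the paired fit, members that had passed kept their sign in 425 of 425 values and the call in 377. The replicate block within time, counted among the 26, is the paired fit itself. In many settings the log2 difference of a time comparison could not change, so the kept sign says little. Such settings varied the filter, the trend or the block, or left out arrays of the other treatment. Of 5785 values of members that had not passed, 421 had the other sign and 56 passed. The count of members between 6 h and 3 h moved by over 1.5 times with array weights (20 with GW5074 and 13 in low potassium, against 9 and 8) and, with GW5074, without both 6 h arrays of letter B (15). Of all genes, 51.9% and 34.9% passed with array weights and, with GW5074, 35.1% without those arrays. With 1 array left out at a time it was 4 to 14 with GW5074 (4 without 6 h C, 5 without 3 h A or B, 14 without 6 h B of GW5074) and 4 to 10 in low potassium (4 without 3 h A, 6 h A or 6 h C, and 5 without 3 h B of low potassium). The counts over all 10261 genes moved too. With GW5074, 910 genes were higher and 931 lower without its 6 h array C. Without its 6 h array B, 1538 were higher and 1741 lower, against 1381 and 1448 with all arrays. In low potassium, 648 were higher and 822 lower without its 6 h array C. Without its 6 h array B, 1339 were higher and 1740 lower, against 1174 and 1450 with all arrays. Where a group is left with 2 arrays, its spread is pooled with the other groups. For GW5074 against low potassium, the paired fit, which is the replicate block within time, gave 0 members at 6 h, 0 at 3 h and 0 averaged. That is the result already given above and no further check. With 1 pair left out it gave 0 to 1 at 6 h and 0 to 1 averaged, and without the 6 h pair B 1 (Gstp1). With the letter as a replicate block over both times, 13 members passed between the times with GW5074 and 12 in low potassium (34% and 33.1% of all genes). The cause of these movements was not tested. Single arrays were not left out for the other pathway genes.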

Other observations

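Prdx1, Fth1 and Ftl1 lie only on probe sets that carry other symbols too, so their values cannot be given to 1 gene. The probe set of Prdx1, a cytosolic peroxiredoxin, and Prdx1l1 had 1545, 1745 and 1697 with GW5074 and 1947, 1804 and 1804 in low potassium at 6 h, against 2709, 2388 and 2054 with GW5074 and 2326, 2354 and 2115 in low potassium at 3 h. All 6 arrays at 6 h lay below all 6 at 3 h. The probe set of Ftl1, the light chain of the iron store ferritin, carries 5 symbols and had 1722, 1778 and 1893 with GW5074 and 2357, 1907 and 2292 in low potassium at 6 h, against 3170, 3611 and 2748 with GW5074 and 3071, 3787 and 3113 in low potassium at 3 h. The times did not overlap, and at 6 h the 3 GW5074 arrays lay below the 3 low-potassium arrays. The probe set of Fth1, the heavy chain, and a pseudogene had 7892, 7666 and 7911 with GW5074 and 9204, 7229 and 7255 in low potassium at 6 h, and 8941, 9360 and 9700 with GW5074 and 8278, 9278 and 9147 in low potassium at 3 h. With GW5074 its times did not overlap, and in low potassium array A at 6 h lay inside the 3 h range. These 3 probe sets were among the 18625 in the fit, but their results were not assigned to a gene and are not given here.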
